A study of Mus musculus with 7 samples.

Results

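Collagen transcripts were measured in the ventricles of male mice after trans-aortic banding (TAB), a narrowing of the aorta that raises the pressure the left ventricle works against, or after a sham operation. The collagen genes were taken as the rows of the deposited expression table whose symbol is Col, a number, the letter a and a number, which gave 44 genes of 23847 rows, with no symbol repeated. By the structure their proteins are known to form, 11 were fibrillar, 3 network-forming, 9 FACIT (fibril-associated collagens with interrupted triple helices), 8 of the basement membrane, 7 of beaded filaments and related types, 1 of anchoring fibrils, 4 transmembrane and 1 of another kind. There were 4 Sham and 3 TAB libraries of polyA-enriched RNA, each with 1 FPKM value per gene (fragments per kilobase of transcript and per library depth). Per the labels' protocols the mice had surgery at 8 weeks of age, the aorta being tied down onto a 27-gauge needle in TAB and the suture left loose in Sham. An age of 12 weeks is given for the samples of both groups, while the series' design text can be read as placing the operation at that age, so the time between surgery and sampling is not certain. No strain, genotype or further treatment is given in the labels. Whether the libraries stem from different animals is not stated either, so the p-values rest on library-to-library spread, which may be technical. The column headers give each library a number of its own but do not say what it stands for. All TAB numbers come before all Sham numbers.

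Collagens are secreted proteins built of chains with a repeated glycine motif, wound around each other in a triple helix. Fibrillar types I, III and V form the tensile fibres of the cardiac interstitium, FACIT types sit on the surface of those fibres, type IV forms the sheet-like scaffold under endothelial cells and around cardiomyocytes, and type VI forms beaded microfilaments between the cell surface and the fibres. In the heart, fibroblasts are the main source of fibrillar collagen and endothelial cells and pericytes are among the sources of type IV. In ventricular lysate a larger number of such cells and more RNA per cell cannot be told apart.

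The libraries were alike in size, with FPKM sums from 510016 to 535455 and depths, estimated from the whole-fragment steps of low values, of 10800000 to 12200000 fragments. At that depth 1 FPKM of Col4a1 stood for 71.4 to 80.7 fragments, so its Sham values rest on an estimated 5171 to 6109 fragments, while collagens near 0.01 FPKM rest on single ones. The 8 cardiomyocyte markers were abundant in every library, Myl2 and Mb among them, but most of them do not tell ventricle from atrium. Of the 8, 0 were called higher in TAB and 4 lower, where 13.3% and 7.05% of all tested rows were. The summed FPKM of the atrial genes Sln, Myl7 and Myl4 was highest in Sham 2 (281.6) and TAB 3 (301.8) and between 31.9 and 133 in the others. A fit that also held the mean log2 level of these atrial genes as a covariate called 17 collagen genes higher and 0 lower. How much of each collagen value stems from atrial tissue was not tested. Leaving out both Sham 2 and TAB 3 changed the call of 1 collagen gene, Col6a3.

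Transcripts of most collagens that the ventricle expresses at an appreciable level were more abundant after banding. Of the 44 genes, 17 were higher in TAB and 0 lower (limma, Benjamini-Hochberg adjusted p under 0.05 over all 11601 tested rows), 3 were tested and not called, and 24 were below the filter of at least 1 FPKM in at least 3 libraries. Over all tested rows, 13.3% were called higher and 7.05% lower, 20.3% in all. All TAB libraries lay above all Sham libraries in 19 of the 20 tested collagen genes, where the same held for 19.9% of tested rows, and TAB lay wholly below Sham in 0 of the 20, against 11.2%. The middle value of the 20 log2 fold changes was 0.62, against 0.05 for all tested rows, on the scale of log2(FPKM + 1), TAB minus Sham, which understates the change of low genes. One of them, Col4a3, reached 1 FPKM in the TAB libraries alone, so it entered the test through the group in which it was high. Of the 18 collagen genes with at least 1 FPKM in all 7 libraries, a set without Col4a3 and Col6a6, 16 were higher, 0 lower and 2 not called. Their middle log2 fold change was 0.63. Without any filter, 19 of the 44 genes were higher and 0 lower, where 7.61% of 17988 rows were higher and 3.84% lower. Under 1 FPKM in all 7 libraries lay 23 of the 44 genes, which were 5 of 11 fibrillar, 1 of 3 network, 7 of 9 FACIT, 1 of 8 basement membrane, 3 of 7 beaded filament and all 4 transmembrane genes, as well as Col7a1 and Col26a1.

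**Figure D1:**
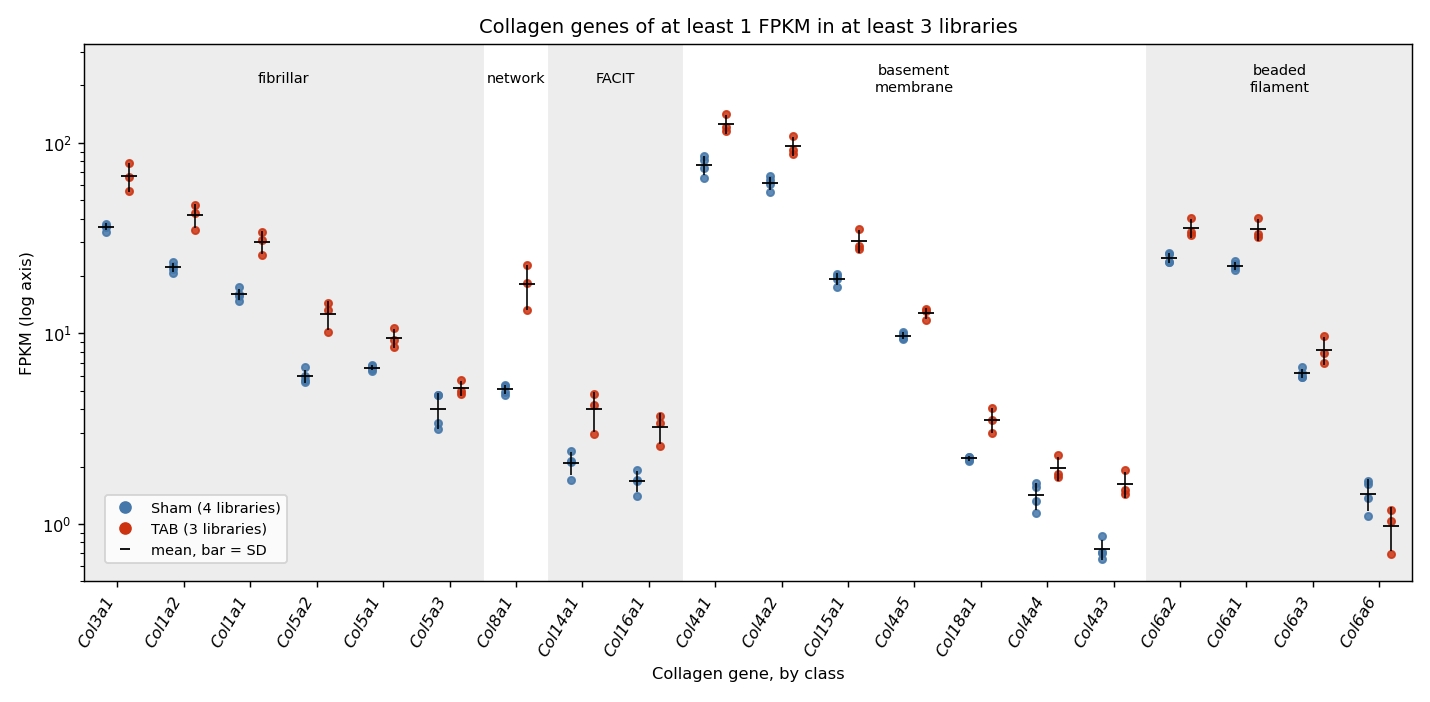
FPKM on a log axis of the 20 collagen genes with at least 1 FPKM in at least 3 libraries, ordered by class and mean level, with each of the 4 Sham and 3 TAB libraries as a point and the group mean and SD in black. The TAB points lie above the Sham points in 19 of the 20 genes, and Col6a6 is the exception.

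Summed over all 44 genes, collagen FPKM was 350, 349, 320.9 and 308 for the Sham libraries in order and 627, 486 and 538 for TAB 1, TAB 2 and TAB 3, a ratio of group means of 1.66. No Sham library reached the lowest TAB library. The basement membrane genes held the largest share of this sum, with Sham at 51.7% ± 1.47 (SD, n = 4) and TAB at 49.6% ± 1.43 (SD, n = 3), followed by the fibrillar genes with 28.0% ± 0.934 and 30.4% ± 1.19. Beaded filament genes made up 16.8% ± 0.378 in Sham and 14.7% ± 0.467 in TAB, and the network genes, mainly Col8a1, made up 1.60% ± 0.144 and 3.36% ± 0.522. These shares are a description, with no test. Col4a1 and Col4a2 alone supplied 41.5% ± 1.80 of the summed collagen FPKM in Sham.

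**Figure D2:**
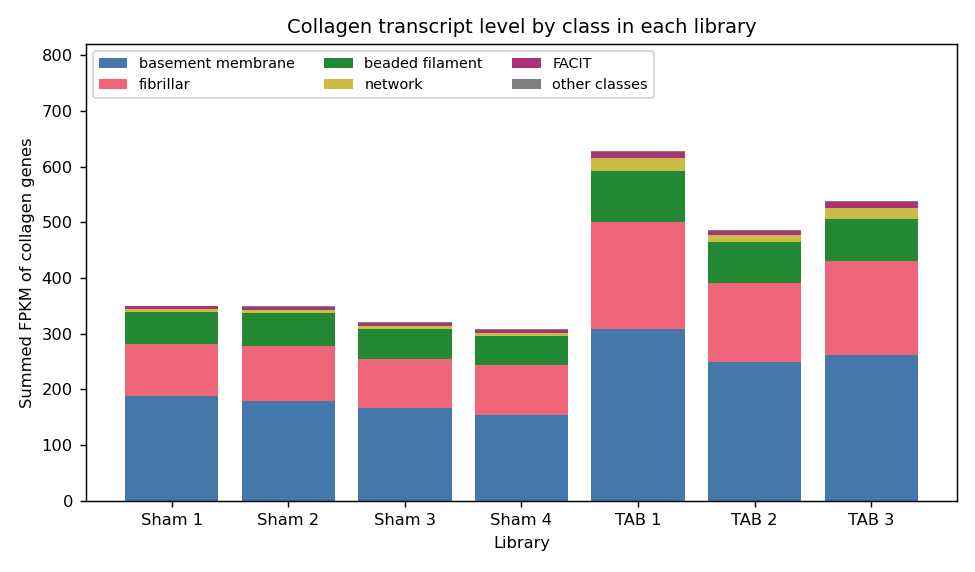
Summed FPKM of the collagen genes in each library, stacked by class, with the anchoring fibril, transmembrane and other genes in grey. The Sham columns stand between 308 and 350 and the TAB columns between 486 and 627, with the basement membrane class as the largest block in each.

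TAB 1 was the library with the highest value in 19 of the 20 tested collagen genes, and TAB 2 was the lowest TAB library in 15. The median-of-ratios scaling factor, which measures a library's general level over all tested rows, was 1.03 for TAB 1, 1.01 for TAB 2 and TAB 3, and from 0.976 to 1.00 for the Sham libraries. Without TAB 1, 16 collagen genes were still called higher.

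Among the fibrillar collagens, 5 of the 6 tested genes rose, those of type I and type III by 1.84- to 1.89-fold. Col1a1 (chr11:94936270-94951856, mm10), which encodes the more numerous chain of type I collagen, was at 16.2, 17.5, 14.9 and 15.6 FPKM in Sham 1 to 4 and at 34.0, 25.7 and 31.0 FPKM in TAB 1 to 3. Its partner Col1a2 (chr6:4505697-4541543) was at 22.7, 23.7, 21.8 and 20.8 FPKM in Sham and at 47.2, 35.04 and 42.9 FPKM in TAB. Col3a1 (chr1:45311538-45349706), whose product forms thinner and more compliant fibres mixed with type I, was at 36.8, 37.7, 34.2 and 36.3 FPKM in Sham and at 78.3, 55.6 and 66.2 FPKM in TAB. In each of these genes the lowest TAB library, TAB 2, was above the highest Sham library. The group means differed 1.89-fold in Col1a1, 1.87-fold in Col1a2 and 1.84-fold in Col3a1, with limma log2 fold changes, in that order, of 0.87 ± 0.09 (SE, adjusted p = 0.000217), 0.87 ± 0.09 (adjusted p = 0.000267) and 0.85 ± 0.10 (adjusted p = 0.000541).

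Type V collagen, which is buried in the type I fibre and limits its diameter, had 2 of its 3 genes called higher. Col5a2 (chr1:45374331-45503282) was at 5.97, 6.64, 5.69 and 5.57 FPKM in Sham 1 to 4 and at 14.5, 10.2 and 13.2 FPKM in TAB 1 to 3, a 2.11-fold difference of means and the largest log2 fold change among fibrillar genes (0.95 ± 0.10 SE, adjusted p = 0.000298). Col5a1 (chr2:27886425-28039510), the chain common to most type V molecules, was at 6.72, 6.84, 6.38 and 6.51 FPKM in Sham and at 10.7, 8.46 and 9.26 FPKM in TAB, a 1.43-fold difference (0.45 ± 0.08, adjusted p = 0.00248). The FPKM level of Col5a1 was above that of Col5a2 in every Sham library and below it in every TAB library. The minor chain Col5a3 was at 4.74, 4.75, 3.15 and 3.39 FPKM in Sham and at 5.69, 4.97 and 4.81 FPKM in TAB, with Sham 2 just below TAB 3, and was not called (log2 fold change 0.31 ± 0.12, adjusted p = 0.104, and adjusted p from 0.0595 to 0.292 over the alternatives). Of the other fibrillar genes, Col27a1 and Col11a2 stayed under 1 FPKM with overlapping groups (means of 0.881 and 0.827 FPKM in Sham and TAB for the first, 0.699 and 0.646 FPKM for the second), and Col24a1 did not exceed 0.0329 FPKM. Col2a1, the collagen of cartilage, was listed at 0 in all libraries other than TAB 3, where it was at 0.0330 FPKM.

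Col3a1 and Col5a2 lie tail to tail on chromosome 1, 24624 bases apart. The 250 bases before the Col3a1 start site (chr1:45311288-45311537, plus strand, from RefSeq's GRCm38 annotation) are shown because Col3a1 was the most abundant fibrillar transcript, with capitals for CATTCC, the letters of the M-CAT motif, which begin 168 bases before the start site, and for TATAAA, which begin 117 bases before it.
Col3a1: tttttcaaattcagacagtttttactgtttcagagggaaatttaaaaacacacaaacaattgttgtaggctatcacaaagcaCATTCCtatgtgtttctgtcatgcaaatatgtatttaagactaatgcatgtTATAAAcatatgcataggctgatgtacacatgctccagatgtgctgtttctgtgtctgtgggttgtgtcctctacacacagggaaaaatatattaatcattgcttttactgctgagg
This stretch is poor in G and C (35.2%, where the median of all 32851 windows was 52.4%). Col3a1 was the only one of the 16 tested collagen genes with a promoter window to hold TATAAA, on either strand.

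The network collagen gene Col8a1 had the largest change of all tested collagens. Col8a1 (chr16:57624256-57754737) encodes a short-chain collagen that forms hexagonal lattices and is known from vessel walls and the corneal endothelium. It was at 4.78, 5.31, 5.37 and 4.90 FPKM in Sham 1 to 4 and at 22.8, 13.2 and 18.3 FPKM in TAB 1 to 3. The Sham libraries lay close together, and each TAB library was far above them. The difference of means was 3.56-fold and the log2 fold change 1.62 ± 0.15 (SE, adjusted p = 0.000266), which ranked 14 among all tested rows, and it stayed between 1.45 and 1.82 over the alternatives. It was the only collagen gene called with a log2 fold change of at least 1, as 0.379% of tested rows were. Its partner Col8a2 reached 1 FPKM in 1 library, with 0.141 to 0.282 FPKM in Sham and 0.523, 0.165 and 1.11 FPKM in TAB 1 to 3, so that TAB 2 lay within the Sham range. Col10a1, the network collagen of growth plate cartilage, was at 0 in 6 of 7 libraries.

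Shown for contrast with Col3a1 are the 250 bases before the Col8a1 start site (chr16:57754738-57754987, minus strand, GRCm38), with capitals for GGGCGG or its reverse complement.
Col8a1: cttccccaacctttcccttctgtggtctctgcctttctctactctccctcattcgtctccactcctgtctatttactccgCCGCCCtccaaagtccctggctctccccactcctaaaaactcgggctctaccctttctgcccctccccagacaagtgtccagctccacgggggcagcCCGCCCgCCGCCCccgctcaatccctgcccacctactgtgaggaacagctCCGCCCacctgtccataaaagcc
The stretch holds 60.8% G and C. Such windows were available for 35 of the 44 collagen genes, and those of Col1a1, Col5a2, Col14a1 and Col4a3 were not among them. GGGCGG, the letters of the GC box, occurred on either strand in 21 of the 35, against 32.7% of all windows. The other letters searched on both strands were about as frequent as in all windows: CCAAT in 34.3% of collagen windows and 33.8% of all, CAGAC in 40.0% and 42.2%, TATAAA in 14.3% and 12.4% and CATTCC in 8.57% and 12.6%. None of the 5 strings contains another, and a match is a run of letters and not evidence of binding.

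**Figure D3:**
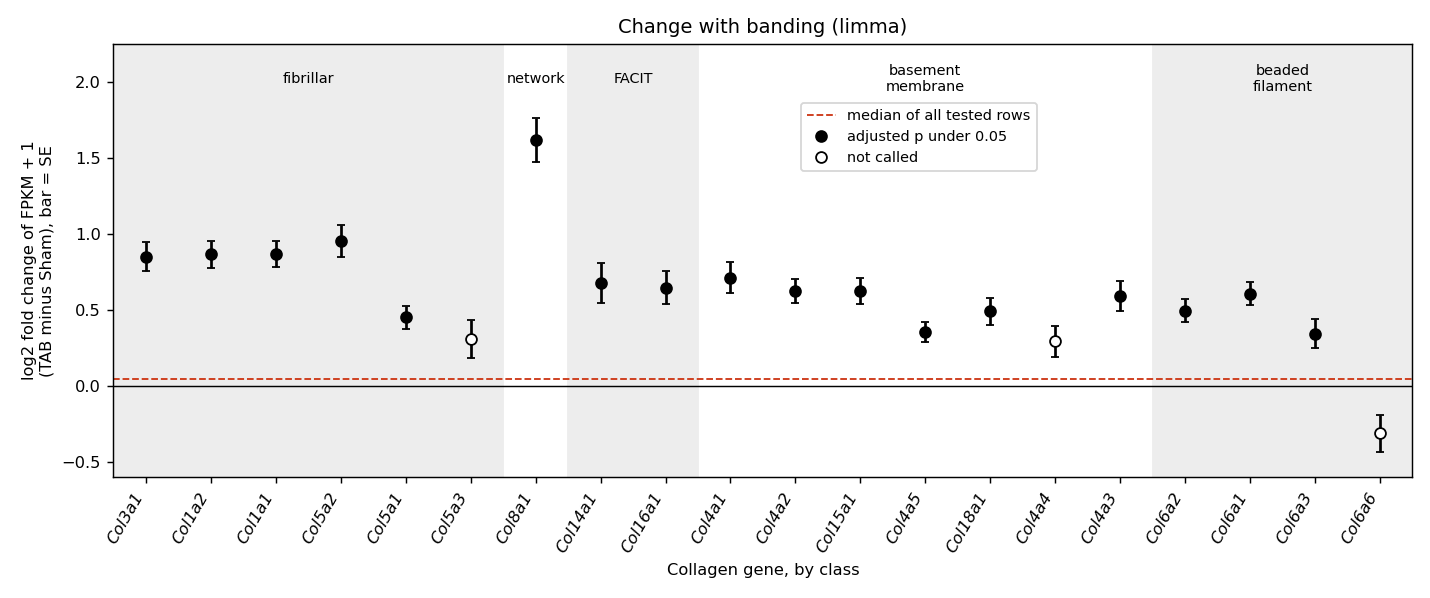
Log2 fold change of FPKM + 1 (TAB minus Sham) with its limma standard error for the 20 tested collagen genes by class, filled where the adjusted p is under 0.05. The dashed line is the median of all tested rows (0.05), and Col8a1 stands highest at 1.62 and Col6a6 lowest at -0.31.

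Of 9 FACIT genes only Col14a1 and Col16a1 passed the filter, and both rose. Col14a1 (chr15:55307750-55520803), whose product links fibrils and is typical of mechanically loaded tissue, was at 2.14, 2.40, 2.10 and 1.71 FPKM in Sham 1 to 4 and at 4.83, 2.95 and 4.19 FPKM in TAB 1 to 3 (1.91-fold, log2 fold change 0.68 ± 0.13 SE, adjusted p = 0.0050). Col16a1 (chr4:130047840-130099277) was at 1.92, 1.40, 1.69 and 1.71 FPKM in Sham and at 3.69, 2.55 and 3.40 FPKM in TAB (1.91-fold, 0.65 ± 0.11, adjusted p = 0.0027). Neither gene overlapped between the groups.

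Below the filter, Col12a1 and Col9a2 stood out from the other FACIT genes. Col12a1, a close relative of Col14a1 found in tendon and ligament, was at 0.119, 0.146, 0.139 and 0.143 FPKM in Sham 1 to 4 and at 0.532, 0.399 and 0.882 FPKM in TAB 1 to 3, an estimated 15 to 20 fragments against 56 to 121. Its ratio of means was 4.42, above that of Col8a1, and in the fit without a filter it was called higher (log2 fold change 0.49 ± 0.09, adjusted p = 0.014). Col9a2, a chain of the type IX collagen of cartilage, was at 0.0333, 0.130, 0.0589 and 0.0912 FPKM in Sham and at 0.407, 0.356 and 0.336 FPKM in TAB, an estimated 1 to 4 fragments against 12 to 14, and was also called without a filter (0.34 ± 0.04, adjusted p = 0.00312). Of its partner chains, Col9a3 overlapped between groups at no more than 0.176 FPKM, and Col9a1 was at 0 in all Sham libraries and in TAB 3. Col20a1, Col22a1 and Col19a1 also overlapped, with highest values of 0.726, 0.791 and 0.00808 FPKM.

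Type IV collagen supplied the most abundant collagen transcripts of the ventricle. Col4a1 (chr8:11198423-11312826) was at 85.5, 81.4, 73.9 and 65.1 FPKM in Sham 1 to 4 and at 142, 115 and 120.3 FPKM in TAB 1 to 3. Col4a2 (chr8:11312829-11449287), its obligate partner in the common type IV molecule, was at 66.8, 63.4, 61.1 and 55.3 FPKM in Sham and at 108, 87.4 and 92.0 FPKM in TAB. Both had Sham 1 highest and Sham 4 lowest within Sham, and TAB 1 highest within TAB, and in neither did the groups overlap. The differences of means were 1.64-fold and 1.56-fold (on the log2 scale 0.71 ± 0.10 SE with adjusted p = 0.00193, and 0.63 ± 0.08 with adjusted p = 0.000811).

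The chains of the more specialised type IV networks were at lower levels, and 2 of the 3 tested rose. Of these, Col4a3 passed the filter through its TAB values alone, so its p-value comes from a test it entered by being high in TAB. Col4a5 (chrX:141475419-141689235) was at 9.91, 9.48, 10.2 and 9.35 FPKM in Sham and at 13.4, 11.7 and 13.1 FPKM in TAB, a 1.31-fold difference (0.36 ± 0.06, adjusted p = 0.00356). Col4a3 was at 0.864, 0.715, 0.656 and 0.705 FPKM in Sham and at 1.91, 1.503 and 1.44 FPKM in TAB, a 2.20-fold difference (0.59 ± 0.10, adjusted p = 0.00239). Its partner Col4a4 was at 1.64, 1.56, 1.14 and 1.32 FPKM in Sham and at 2.29, 1.82 and 1.77 FPKM in TAB, without overlap but not called (0.29 ± 0.10, adjusted p = 0.0697, and adjusted p from 0.0520 to 0.247 over the alternatives). Col4a6, the remaining chain, was at 0.211 to 0.278 FPKM in Sham and 0.342 to 0.570 FPKM in TAB, and was called higher only where no filter was set (adjusted p = 0.0481).

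All 6 type IV genes are arranged in head-to-head pairs that share the stretch between their start sites. By the authors' coordinates, 2 bases separate Col4a1 from Col4a2, 71 bases separate Col4a4 from Col4a3 and 1342 bases separate Col4a6 from Col4a5. The 71 bases between the start sites of Col4a4 and Col4a3 (chr1:82586850-82586920, minus strand as read for Col4a4, GRCm38) are given because the members of this pair share the whole of it.
Col4a4: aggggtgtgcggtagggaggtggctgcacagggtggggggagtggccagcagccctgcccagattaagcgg
No capitals appear, since none of the 5 motifs searched was in this stretch, of which 69.0% was G or C. Within each of the 3 pairs both genes had all TAB libraries above all Sham libraries, and the gene with the larger ratio of means was Col4a1 (1.64 against 1.56), Col4a3 (2.20 against 1.38) and Col4a6 (1.90 against 1.31).

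Both multiplexins, collagens that bridge the basement membrane to the surrounding matrix and carry endostatin-type domains, rose. Col15a1 (chr4:47208012-47313165), prominent in muscle and capillaries, was at 19.97, 20.6, 17.6 and 19.2 FPKM in Sham 1 to 4 and at 35.3, 27.6 and 28.7 FPKM in TAB 1 to 3 (1.58-fold, log2 fold change 0.63 ± 0.09 SE, adjusted p = 0.000845). Col18a1 (chr10:77052179-77166530), the source of endostatin, was at 2.248, 2.15, 2.255 and 2.16 FPKM in Sham and at 4.04, 3.51 and 3.02 FPKM in TAB (1.60-fold, 0.49 ± 0.09, adjusted p = 0.00341). The groups did not overlap in either gene, and the Sham values of Col18a1 had an SD of 0.0545 FPKM.

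Of type VI collagen, the 3 standard chains were called higher and no alternative chain was. Col6a1 (chr10:76708792-76726044) was at 23.1, 23.9, 22.3 and 21.4 FPKM in Sham 1 to 4 and at 40.5, 32.1 and 33.1 FPKM in TAB 1 to 3 (1.55-fold, log2 fold change 0.61 ± 0.08 SE, adjusted p = 0.000603). Col6a2, which lies 85387 bases from Col6a1 on the same strand, was at 26.0, 26.5, 23.7 and 23.8 FPKM in Sham and at 40.4, 32.7 and 34.1 FPKM in TAB (1.43-fold, 0.49 ± 0.07, adjusted p = 0.00149). Col6a3, the long chain that completes the standard molecule, was at 5.91, 6.64, 5.92 and 6.19 FPKM in Sham and at 9.64, 6.96 and 7.89 FPKM in TAB (1.32-fold, 0.35 ± 0.09, adjusted p = 0.0247). The groups did not overlap in these genes, and in Col6a3 Sham 2 lay just below TAB 2. The call of Col6a3 was lost without Sham 1, Sham 3, TAB 1 or TAB 3, without both Sham 2 and TAB 3, without a filter and with the replicate block (adjusted p from 0.0544 to 0.0929), and its log2 fold change ranged from 0.23 to 0.44.

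Col6a6, an alternative partner for Col6a1 and Col6a2, was the only tested collagen with a lower mean in TAB. It was at 1.68, 1.36, 1.63 and 1.10 FPKM in Sham and at 1.04, 1.18 and 0.692 FPKM in TAB, with TAB 2 above Sham 4, and was not called (log2 fold change -0.31 ± 0.12, adjusted p = 0.0967). Under quantile normalization it was called lower (adjusted p = 0.0461). Its neighbours on chromosome 9, Col6a5 and Col6a4, were nearly absent, with highest values of 0.0470 and 0.0111 FPKM. Col28a1, a related collagen known from peripheral nerve, was at 0.169 to 0.393 FPKM in Sham and 0.476 to 0.546 FPKM in TAB and was not called without a filter (adjusted p = 0.0932). Schwann cell markers were 0 of 2 tested called higher and 0 lower, with summed FPKM of 5.32 to 6.00 in Sham and 4.499 to 6.19 in TAB.

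Transmembrane collagens, which span the cell membrane and are shed from it, stayed under 1 FPKM and overlapped between groups. Col13a1, a collagen of cell adhesion and the neuromuscular junction, had means of 0.544 FPKM in Sham and 0.509 FPKM in TAB, and Col23a1 of 0.665 and 0.478 FPKM. Col25a1 did not exceed 0.0978 FPKM, and Col17a1, the hemidesmosome collagen of skin, was listed at 0 in 4 libraries. Col7a1, the anchoring fibril collagen of skin, had means of 0.170 and 0.177 FPKM. Col26a1 was higher in every TAB library (0.241 to 0.287 FPKM) than in every Sham library (0.0339 to 0.232 FPKM), on an estimated 1 to 9 fragments.

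All 5 genes below the filter whose groups did not overlap had TAB above Sham, namely Col12a1, Col9a2, Col4a6, Col28a1 and Col26a1, out of 24, where 7.19% of the 6387 rows above 0 and below the filter did so in that direction. Col11a1, a fibrillar chain of cartilage, was at 0.227 and 0.199 FPKM in TAB 1 and TAB 3 but at 0.0108 FPKM in TAB 2, below the Sham range of 0.0241 to 0.0551 FPKM, and Col8a2 was also lowest in TAB 2 among the TAB libraries. Of the 6 cartilage and valve markers, 1 of 3 tested was called higher (Prg4, a call lost without TAB 1 or TAB 3), against 13.3% of all tested rows. The 6 markers summed to 16.9, 9.13 and 21.6 FPKM in TAB 1 to 3 and to 5.97 to 11.1 FPKM in Sham. Most of the sum came from Prg4 and from Comp, which is also on the list of activated fibroblast markers. Of the cartilage markers below the filter, Sox9 was at 0.134 to 0.295 FPKM in Sham and 0.494 to 0.558 FPKM in TAB, and Acan at 0.0117 to 0.0762 FPKM and 0.0765 to 0.157 FPKM. Both had all TAB libraries above all Sham libraries, as Col9a2 did, while Hapln1 and Chad overlapped. The part of these cells in the values of the cartilage collagens was not tested.

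**Figure D4:**
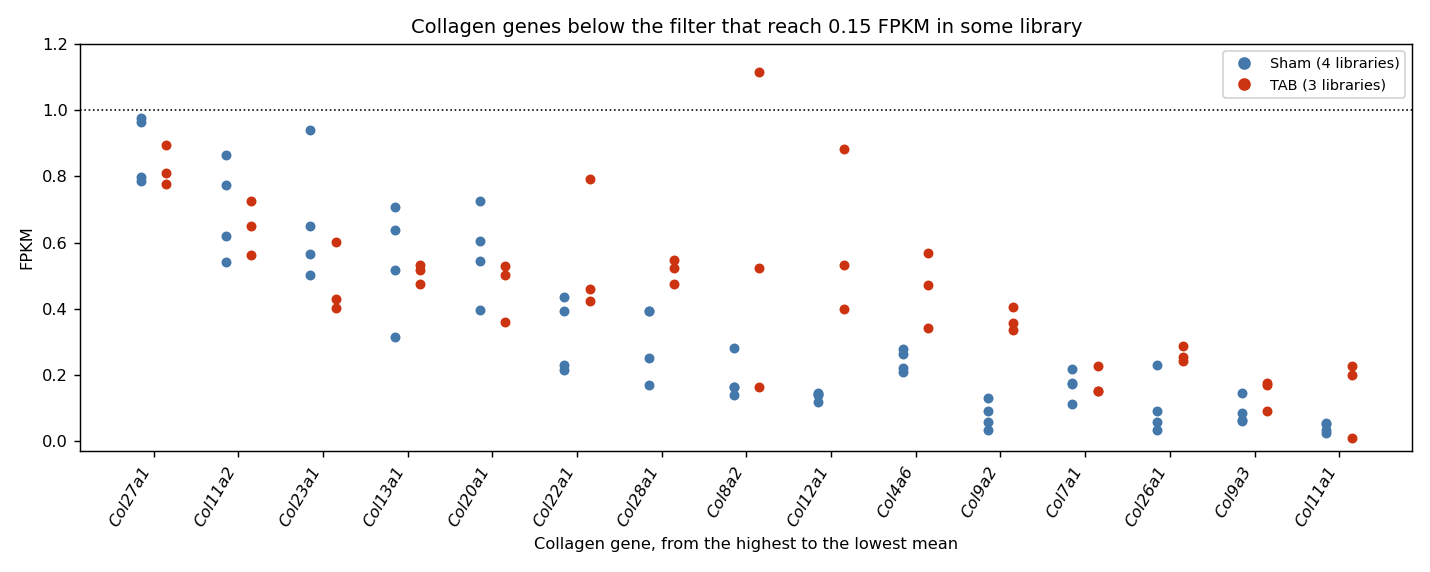
FPKM of the 15 collagen genes below the filter that reached 0.15 FPKM in at least 1 library, from the highest to the lowest mean, with the 1 FPKM level dotted. Col12a1, Col4a6, Col9a2, Col28a1 and Col26a1 have all TAB points above all Sham points, while Col8a2 and Col11a1 have 1 TAB point among or below the Sham points.

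Ratios between chains do not depend on how libraries are scaled. For Col1a2/Col1a1 the ratio of FPKM was 1.39 ± 0.0597 (SD, n = 4) under Sham and 1.38 ± 0.0136 (SD, n = 3) under TAB, and Col3a1/Col1a1 was 2.27 ± 0.0745 and 2.20 ± 0.0896, both with overlapping groups (exact permutation p = 0.8286 and 0.314, two-sided). Col14a1/Col1a1 was 0.130 ± 0.0145 in Sham and 0.131 ± 0.0144 in TAB (exact permutation p = 0.943). These groups overlapped, which does not show that the ratios are equal.

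Other ratios parted the groups. Col8a1/Col1a1 was 0.296, 0.304, 0.362 and 0.313 for the Sham libraries and 0.671, 0.515 and 0.589 for the TAB libraries, a log2 difference of 0.89. Col5a1/Col1a1 was 0.416, 0.391, 0.430 and 0.417 in Sham and 0.314, 0.329 and 0.299 in TAB, a log2 difference of -0.40, whereas Col5a2/Col1a1 went from 0.357 to 0.383 in Sham to 0.395 to 0.426 in TAB, a log2 difference of 0.16. Col6a3/Col6a1 was 0.256 to 0.289 in Sham and 0.217 to 0.238 in TAB, a log2 difference of -0.24. Each of these 4 had the smallest exact permutation p that 35 assignments of 7 libraries can give (0.0286, two-sided). Adjusted over the 13 ratios computed it was 0.0929, so 0 of the 13 passed the threshold, and 4 did at an unadjusted p under 0.05. A lone ratio at the smallest p could not pass after this adjustment, however far apart its groups. The count of 0 therefore does not show that the ratios are unchanged. Col6a2/Col6a1 (1.10 ± 0.0279 in Sham, 1.01 ± 0.0168 in TAB), Col4a5/Col4a1 (0.128 ± 0.0144, 0.102 ± 0.00756) and Col4a2/Col4a1 (0.809 ± 0.0341, 0.763 ± 0.00203) were also without overlap (exact permutation p = 0.0571, 0.0571 and 0.0857). Col4a1/Col1a1, Col15a1/Col4a1 and Col18a1/Col4a1 overlapped between groups (exact permutation p = 0.143, 0.714 and 0.686).

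**Figure D5:**
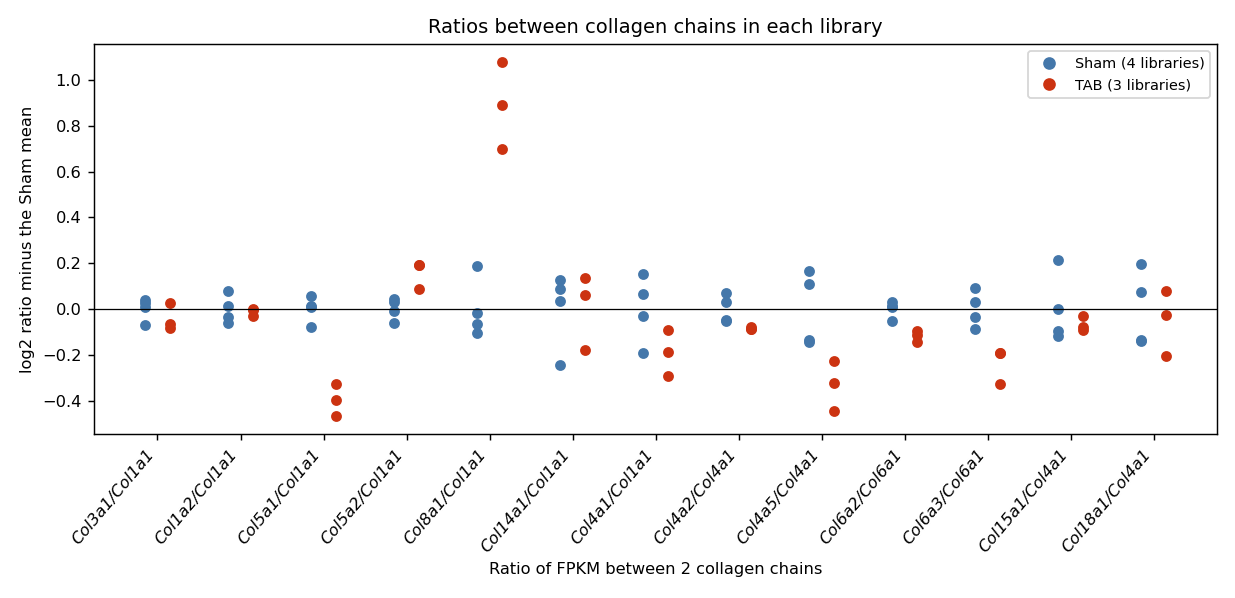
Log2 ratio of FPKM between 2 collagen chains in each library, minus the mean of the Sham libraries, for the 13 ratios computed. TAB points of Col8a1/Col1a1 lie far above the Sham points and those of Col5a1/Col1a1 below, while Col1a2/Col1a1 and Col14a1/Col1a1 overlap.

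Genes that make and handle collagen were read against the same shares of all tested rows, 13.3% higher and 7.05% lower. Of 18 tested genes of collagen folding and modification in the endoplasmic reticulum 4 were higher, 1 lower and 13 not called, and the middle log2 fold change was 0.14. The 4 were the prolyl 3-hydroxylase genes P3h3 (0.47 ± 0.08 SE, adjusted p = 0.00278) and P3h2 (0.45 ± 0.11, adjusted p = 0.0163), listed under older symbols, the prolyl isomerase Ppib (0.34 ± 0.07, adjusted p = 0.00851) and P4hb (0.14 ± 0.04, adjusted p = 0.0187). P3h4 was lower (-0.47 ± 0.12, adjusted p = 0.0273, chosen after its value was seen). The collagen chaperone Serpinh1 was at 114.4 to 149 FPKM in Sham and 122 to 159 FPKM in TAB and was not called (adjusted p = 0.474, also named after its values were seen). The calls of P3h2, P4hb and P3h4 were each lost under at least 4 alternatives (adjusted p from 0.0521 to 0.0959), the replicate block among them, which left 2 higher and 0 lower.

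The list of propeptide trimming and crosslinking held 13 genes, of which 8 were tested. Of these 8, 7 were higher, 0 lower and 1 (Lox, adjusted p = 0.101) not called, with a median of 0.55. Among those not tested, Adamts3 had all TAB libraries (0.660 to 0.750 FPKM) below all Sham libraries (0.834 to 1.01 FPKM). Loxl4 had all TAB libraries above all Sham libraries, and Tll1, Tll2 and Adamts14 overlapped. The procollagen C-proteinase enhancers Pcolce (0.62 ± 0.08 SE, adjusted p = 0.000574) and Pcolce2 (0.54 ± 0.07, adjusted p = 0.000497) rose, as did the crosslinking oxidases Loxl2 (0.77 ± 0.10, adjusted p = 0.000815) and Loxl1 (0.57 ± 0.08, adjusted p = 0.000806). The calls of Loxl3 and Adamts2 were lost under 4 and 2 alternatives (adjusted p from 0.0514 to 0.0915), both of them without TAB 1 and that of Loxl3 also with the replicate block. Of 5 tested collagen receptor and uptake genes, the endocytic receptor Mrc2 (0.50 ± 0.08, adjusted p = 0.00201) and the discoidin receptor Ddr1 (0.36 ± 0.09, adjusted p = 0.0167) were higher, 0 were lower and 3 were not called. Ddr1 lost its call without TAB 1 and with the replicate block (adjusted p from 0.0656 to 0.0753). Of 7 tested collagen-degrading enzymes and their inhibitors 5 were higher and 0 lower, led by the inhibitor Timp1 (1.68 ± 0.19, adjusted p = 0.00086), the gelatinase Mmp2 (0.65 ± 0.09, adjusted p = 0.00086), Timp2 (0.29 ± 0.05, adjusted p = 0.0039) and the collagenolytic cathepsin Ctsk (0.86 ± 0.16, adjusted p = 0.00558). Mmp14, a membrane-bound collagenase and another of the 5, lost its call without TAB 1 (adjusted p = 0.057).

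Markers of the cells that make collagen were called higher in part, where 13.3% of all tested rows were called higher and 7.05% lower. Of 10 markers of fibroblasts, Tcf21, Pi16, Dcn, Cd34, Ly6a and Mfap5 were higher (6), Scara5 was lower and Pdgfra, Dpt and Gsn were not called, and their summed FPKM was 921 to 1029 in Sham and 1080 to 1278 in TAB. Of 7 tested markers of activated fibroblasts 4 were higher (Postn, Meox1, Wisp2 and Cilp), 0 were lower and Acta2, Fap and Comp were not called. The sum over all 8 was 63.1 to 74.3 FPKM in Sham and 108 to 167 FPKM in TAB, with TAB 2 the lowest TAB library here too. Among 10 endothelial markers, Cdh5, Tie1, Emcn and Egfl7 were higher (4), Cd36 was lower and 5 were not called, while without TAB 1 the counts were 2 higher and 2 lower. Their sums overlapped (1981 to 2666 FPKM in Sham, 1819 to 2101 FPKM in TAB), but Fabp4 and Cd36 made up 85.3% to 90.5% of them. Without those genes, a choice made after seeing the data, the remaining 8 summed to 224.8 to 254.7 FPKM in Sham and 267.1 to 300.2 FPKM in TAB, with no overlap. For smooth muscle and pericytes, 6 of 9 markers were higher and 0 lower, with sums of 215.3 to 231 FPKM in Sham and 254 to 295 FPKM in TAB. Macrophage markers were higher in 3 of 7 tested and lower in 0, and those called higher became 1 without TAB 1 and 5 without TAB 2. Their sums were 130.2 to 142.3 FPKM in Sham and 142.8 to 191 FPKM in TAB. A few genes made up much of the other sums too: Gsn and Dcn (fibroblasts), Acta2 and Postn (activated fibroblasts), Rgs5 (pericytes) and Lyz2 (macrophages). Of these, Dcn and Postn were called higher, while the others were not called and overlapped between groups. None of the markers of these 5 lists was at 0 in all libraries. The part of cell numbers in the collagen values was not tested.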

How the data were processed

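RNA of 4 Sham and 3 TAB ventricle libraries was read from 1 table of FPKM values that the authors deposited. The submitters' processing notes name TopHat, Cufflinks and mm10. Their versions, parameters and annotation, and whether strand was used, are not given in the labels. Columns were matched to samples through the sample descriptions. As the table holds no counts, no count model was run, and depth was estimated from low values of genes with 1 GENCODE transcript of 3000 to 6000 bp, as the depth at which most lay within 5% of whole fragments.

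Rows with at least 1 FPKM in at least 3 libraries were tested as log2(FPKM + 1) with limma 3.58.1 in R 4.3.3 (eBayes with trend and robust, two-sided), with Benjamini-Hochberg adjustment over the 11601 rows and a threshold of 0.05. Ratios were compared by an exact permutation test of mean log2 ratios where both genes had at least 1 FPKM in every library (13 ratios). Simulated data for this comparison held 11601 genes, of which 200 were changed by a known fold of FPKM + 1. Of the genes changed 1.25-fold 42% were recovered, 92% of those changed 1.5-fold, 100% of those changed 2-fold and 98% of those changed 3-fold. For a gene near 1 FPKM such a fold of FPKM + 1 takes a larger fold of FPKM. There were 16 false calls among the unchanged genes. In the data 2360 rows were called, many more than the 200 genes changed here, so these rates need not hold for the data. All members were described, and up to 4 called genes of each pathway list with the smallest adjusted p. Members, classes and lists were chosen with earlier results of these data known. Alternatives covered the pseudocount, filter, scaling, model options, replicate block, atrial content and each library left out. Positions count from 1, and promoter windows are RefSeq's on GRCm38, the same build as mm10.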

Additional observations from a re-analysis of the deposited data

How the results depend on the processing

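Each of 18 alternatives gave a value for most tested collagen genes, 353 in all, of which 345 kept direction and call, 7 lost the call (all of them Col6a3), 1 gained one (Col6a6 under quantile normalization, adjusted p = 0.0461) and 0 changed direction. Collagen genes called higher numbered 16 or 17 with any single library left out. Under quantile normalization 1 collagen gene, of the beaded filament class, was called lower. FACIT genes called higher came to 4 without a filter and to 0 with a filter at a mean of 5 FPKM, which left no FACIT gene to test. Among all rows, higher calls were 875 without TAB 1 and 959 without Sham 2 and TAB 3, where lower calls were 395, and calls ranged over the single libraries left out from 875 to 1361 higher and from 545 to 717 lower. Median-of-ratios rescaling gave 1126 higher and 1190 lower, and quantile normalization 1045 and 1225, against 1542 and 818. The median log2 fold change of all tested rows was 0.045 as reported, 0.003 with median-of-ratios rescaling and -0.012 with quantile normalization. The cause of these moves was not tested. With the replicate number as a block, 16 collagen genes were higher and 0 lower, and 1238 and 654 of all rows. The pairs of same-numbered libraries deviated from their group means with correlations of 0.0807, 0.169 and 0.174. Pairs with different numbers had correlations from -0.245 (Sham 3 and TAB 2) to 0.104 (Sham 3 and TAB 1). Sham 2 with TAB 2 and Sham 3 with TAB 3 thus lay above every pair with different numbers. The labels state no pairing, so the main fit used none, and whether the numbers pair the libraries was not tested. The alternatives for pathway and marker lists were chosen after seeing the data, and without TAB 1 the macrophage markers called higher fell to 1, the endothelial ones to 2 and the cartilage ones to 0. Collagen genes under about 0.05 FPKM rest on a few fragments, and a difference in them was not detectable at this depth.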
